A study of Mus musculus with 40 samples.

Results

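Interferon-stimulated genes are the genes that cells switch on when an interferon binds its receptor, and the 44 described here were chosen by name as a classical set of them. Every probe that the annotation table of the array platform (Illumina MouseWG-6 v2, a bead array) assigns to these symbols was taken, whatever its signal. The table named 83 probes for 43 of the 44 genes, and Ifi44 had no named probe. A gene was tested when a probe of it was detected (detection p-value under 0.05) on at least 5 of the 40 arrays, which 39 of the 44 genes reached, among 10730 genes in all. The 4 genes with a probe that did not reach it were Oas1a, Ifit1, Xaf1 and Iigp1, whose best probes were detected on 1, 0, 2 and 4 arrays. Of the 39 tested genes, 22 were detected on all 40 arrays.

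Type I interferons (interferon alpha and beta) act through receptor-bound JAK kinases on a transcription factor complex that holds STAT2 and IRF9 and binds the interferon-stimulated response element (ISRE) in promoters. Interferon gamma also signals through JAK kinases, and its targets carry the gamma-activated site (GAS). The induced proteins degrade or sense viral RNA, block entry and assembly of viruses, attach the ubiquitin-like protein ISG15 to other proteins, restrict intracellular pathogens and prepare peptides for MHC class I. Th1 cells, a type of CD4 helper T cell, secrete interferon gamma, whereas Th17 cells secrete IL-17. MALT1 is a protease and scaffold that couples the T cell receptor to the NF-kappaB transcription factors.

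The cells came from C57BL6 mice aged 8 to 12 weeks. Naive CD4+CD62L+ T cells of lymph nodes and spleens of wild-type (WT) or Malt1-deficient (Malt1-/-) animals were driven in culture toward Th1 or Th17 and collected after 48 or 72 h. The 8 groups of genotype, lineage and time had 5 arrays each. The cytokines and stimuli of the cultures, and whether replicates of a group were separate animals or cultures, are not given in the sources used here, so that p-values measure the spread between these arrays. The labels name no cell type to which the deletion was restricted.

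The labels were checked on genes outside the set. Malt1 itself was lower in Malt1-/- arrays in every pair of groups, by -3.85, -4.75, -4.10 and -4.92 on the log2 scale for Th17 at 48 and 72 h and Th1 at 48 and 72 h. Tbx21, the Th1 transcription factor, was lower in Th17 arrays in all 4 comparisons of the lineages, and Il17a and Il17f, the IL-17 cytokines, were higher. Cxcr3, a chemokine receptor usually linked to Th1 cells, was higher in Th17 arrays instead, by 1.36 in WT arrays at 48 h. Of the 40 arrays, 9 had a profile over all genes closer to the mean of another group than to the mean of their own, and 0 of these were closer to a group of the other lineage. The array that stood farthest apart was WT Th1 72 h replicate 4, which correlated with its own group at -0.05 (gene-centred log2 levels) and most closely with Malt1-/- Th1 at 48 h, at 0.62. That array held the lowest of the 5 values of its group for 27 of the 39 tested genes. Each array detected between 14640 and 17409 of 45281 probes, and the number of arrays limits the precision of the values.

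**Figure D1:**
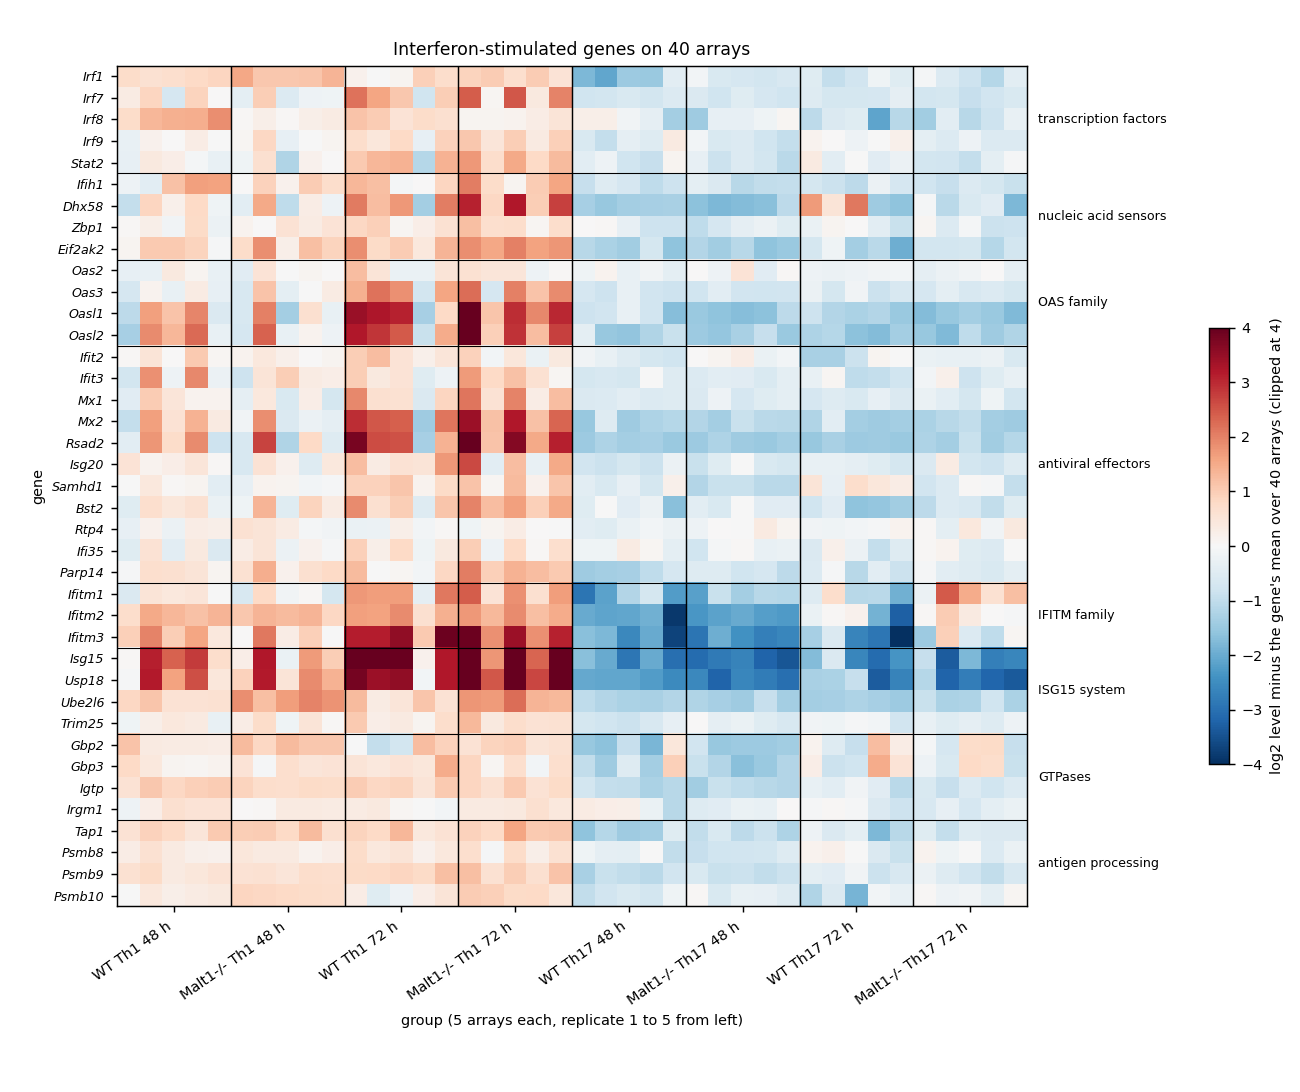
Each row is 1 of the 39 tested interferon-stimulated genes and each column is 1 of the 40 arrays, 5 for each of 8 groups. Colour gives the log2 level minus the mean of that gene over the 40 arrays, clipped at 4. The Th1 arrays on the left are mostly red and the Th17 arrays on the right mostly blue, and within each Th1 group a few arrays are far redder than the rest for Oasl1, Oasl2, Mx2, Rsad2, Isg15 and Usp18.

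The first comparison asked where the set stood in Th17 against Th1 cells of the same genotype and time. The set was lower in Th17 cells: of 39 genes, 22 were lower and 0 higher in WT arrays at 48 h, 30 and 0 in WT arrays at 72 h, 20 and 0 in Malt1-/- arrays at 48 h, and 32 and 0 in Malt1-/- arrays at 72 h (limma moderated test over all 10730 genes, Benjamini-Hochberg adjusted p under 0.05). Over all genes tested, the calls lower in Th17 made up 7.26%, 9.2%, 8.72% and 9.16% in the same order, and the calls higher made up 10.2%, 9.66%, 9.83% and 11.6%. The median difference of the 39 genes, Th17 minus Th1 on the log2 scale, was -1.49, -1.33, -1.20 and -1.45, while the median over all genes lay between -0.01 and 0.02. In these bulk samples fewer cells of a type and less RNA per cell cannot be told apart. The 4 comparisons share no arrays. The probes used for Irf7, Oas3, Mx1, Rsad2 and Ube2l6 were detected on 0 of 20 Th17 arrays. Those of Oasl1, Oasl2 and Mx2 were detected on 2, 3 and 2 of them. These genes, and also Ifih1, Isg20, Ifit3 and Oas2, passed the detection filter only with their Th1 arrays. They could hardly be called higher in Th17, so their part in these counts and medians is no separate support. With the 9 arrays nearer another group left out, 30, 30, 22 and 34 genes were called in either direction. That choice of arrays narrows the spread within groups by construction. The shares of all genes given above belong to the fit of all arrays and not to these counts. A total of 15 genes were lower in all 4 comparisons, 5 in 3 of them, 12 in 2, 5 in 1, and Oas2 and Rtp4 in 0.

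**Figure D2:**
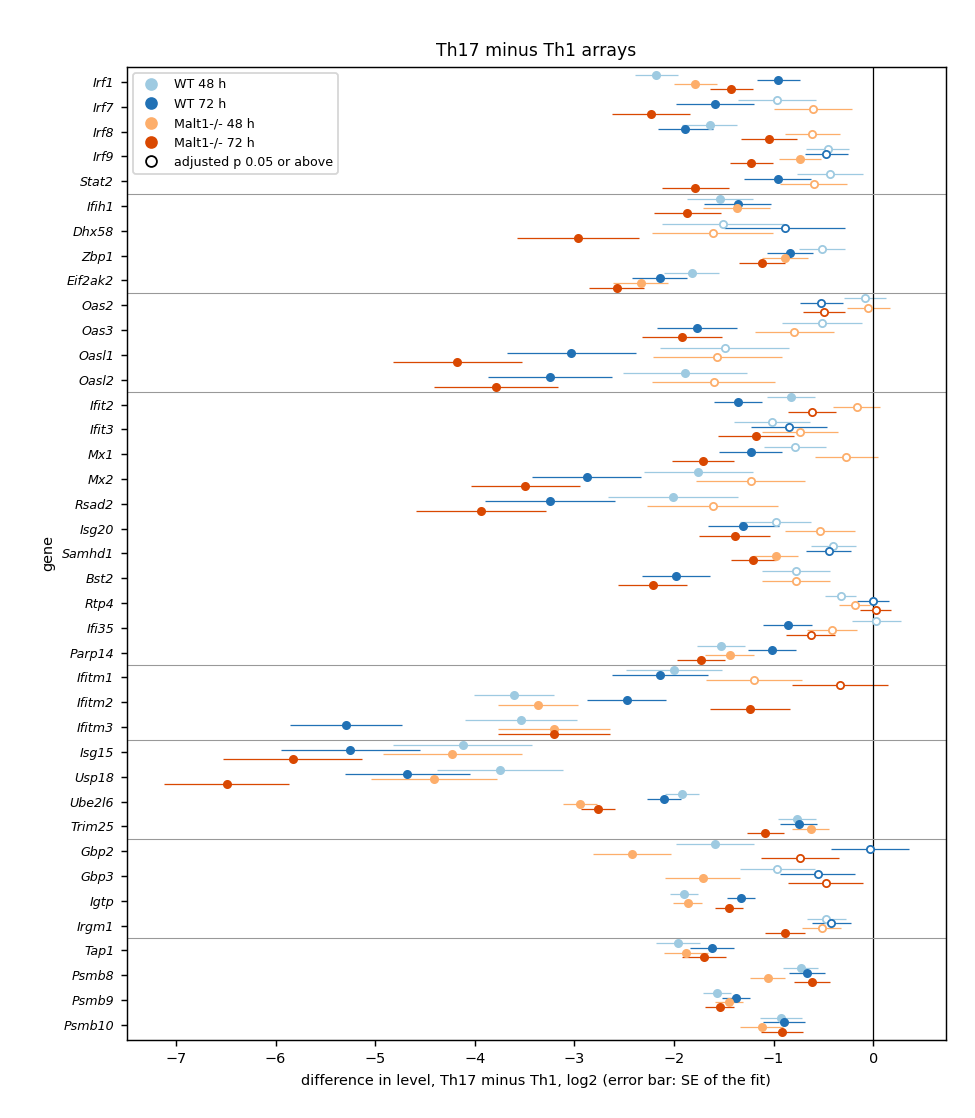
Each row is 1 of the 39 tested genes and the horizontal axis is the difference in log2 level, Th17 minus Th1. Colours mark the 4 pairs of genotype and time, bars are the standard error of the fit, and filled points passed the adjusted p of 0.05. Nearly all points lie left of 0, the Isg15, Usp18 and Ifitm3 points farthest.

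What the genes share in their promoters was read from RefSeq windows (build GRCm38.p6) of 250 bases before to 50 after the start site, which were present for 35 of the 44 genes. The ISRE was searched as GAAANNGAAA and the GAS as TTCNNNGAA, on both strands, with overlapping matches counted. An ISRE match lay in the windows of 16 of the 35 genes (45.7%), against 3.99% of 27025 genes in the same table. A GAS match lay in those of 12 genes (34.3%), against 9.55%. A match to the kappaB motif lay in those of 8 genes (22.9%), against 9.55%. Stretches upstream of the start site are shown for 8 genes picked among those with a match, with the bases of ISRE and GAS matches in capitals. No sensor, OAS or IFITM gene is among them. Psmb8 is the antigen-processing gene shown, and Tap1, Psmb9 and Psmb10 had no ISRE or GAS match in their windows. A match is a description of the letters and no evidence of binding. The genes without a window were Dhx58, Iigp1, Mx1, Mx2, Oas2, Parp14, Rtp4, Usp18 and Zbp1.
Isg15 (chr4:156200863-156200908, - strand): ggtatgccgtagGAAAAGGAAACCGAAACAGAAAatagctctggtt
Rsad2 (chr12:26456551-26456584, - strand): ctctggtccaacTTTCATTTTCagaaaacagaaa
Bst2 (chr8:71537575-71537620, - strand): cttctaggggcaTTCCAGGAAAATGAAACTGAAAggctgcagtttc
Gbp2 (chr3:142620592-142620625, + strand): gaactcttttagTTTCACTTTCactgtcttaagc
Igtp (chr11:58199499-58199543, + strand): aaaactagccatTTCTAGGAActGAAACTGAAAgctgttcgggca
Irf1 (chr11:53769912-53769944, + strand): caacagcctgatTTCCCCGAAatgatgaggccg
Irf8 (chr8:120736175-120736225, + strand): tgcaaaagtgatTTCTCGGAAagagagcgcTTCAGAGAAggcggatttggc
Psmb8 (chr17:34198086-34198118, + strand): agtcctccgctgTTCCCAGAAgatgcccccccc

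Isg15 held 3 overlapping ISRE matches, and in Bst2 a GAS match ran into 2 overlapping ISRE matches. A kappaB match of Bst2 overlapped its GAS match and is not capitalised beyond it. In Igtp a GAS and an ISRE match lay side by side, whereas the stretches of Irf1, Irf8 and Psmb8 held GAS matches and no ISRE match. The Rsad2 and Gbp2 matches read on the opposite strand.

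All 4 genes of the ISG15 system were lower in Th17 cells in all 4 comparisons, and the differences of Isg15 and Usp18 were among the largest of the set. Isg15 encodes the ubiquitin-like modifier itself. Its log2 levels were 8.43, 11.49, 10.76, 11.18 and 9.11 in WT Th1 arrays at 48 h and 6.72, 6.38, 5.49, 6.38 and 5.38 in WT Th17 arrays. At 72 h they were 12.78, 12.59, 12.35, 8.55 and 11.60 in WT Th1 and 6.67, 7.82, 5.77, 5.32 and 6.04 in WT Th17 arrays. The Th1 arrays were all above the Th17 arrays at both times, although Th1 replicate 4 at 72 h lay far below the other four of its group. The Th1 level was 17.4-fold higher at 48 h (-4.12 ± 0.70 log2, SE, limma adjusted p 3.11e-05) and 38.1-fold higher at 72 h (-5.25 ± 0.70, limma adjusted p 6.32e-07).

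In Malt1-/- arrays Isg15 stood at 8.66, 11.60, 8.14, 10.09 and 9.38 in Th1 and 5.30, 5.56, 5.71, 5.20 and 4.97 in Th17 at 48 h. At 72 h it stood at 13.49, 10.17, 12.67, 10.72 and 12.66 in Th1 and 7.48, 5.06, 6.60, 5.65 and 5.78 in Th17. The lineages again did not overlap, and the Th1 level was 18.7-fold and 56.7-fold higher. Usp18, the protease that removes ISG15 and dampens interferon receptor signalling, differed by -3.75, -4.68, -4.41 and -6.49 in WT at 48 and 72 h and Malt1-/- at 48 and 72 h. The last value is an 89.9-fold higher Th1 level, the largest fold of the 39 genes in that comparison.

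Ube2l6, the conjugating enzyme that passes ISG15 to its targets, had 2 kept probes. The brighter one, whose values follow, was detected on 0 of 20 Th17 arrays and 20 of 20 Th1 arrays, and the other on 3 Th17 arrays and 20 Th1 arrays. The log2 levels of the brighter probe in Th1 arrays were 6.78, 7.05, 6.55, 6.53 and 6.58 for WT at 48 h and 7.22, 6.29, 6.46, 7.06 and 6.54 for WT at 72 h. In Malt1-/- Th1 arrays they were 7.82, 7.17, 7.62, 7.94 and 7.75 at 48 h and 7.72, 7.65, 8.20, 7.32 and 7.25 at 72 h. All Th17 arrays lay between 4.49 and 5.17, below every Th1 array. Because the Th17 signal of this probe was not well above background, its folds are bounds: at least 2.6-fold and 2.77-fold higher in WT Th1 arrays and at least 5.44-fold and 5.17-fold higher in Malt1-/- Th1 arrays at 48 and 72 h. Each bound sets the mean of the bright group against, on each array, the higher of the lowest detected signal and the probe's own signal. The limma adjusted p was 6.35e-11, 1.15e-11, 3.33e-15 and 6.72e-15. The brighter probe passed the detection filter through its Th1 arrays alone, so these p-values are no separate support. The other probe gave -1.34, -1.41, -2.45 and -1.61, all called in a fit over probes. Trim25, a ligase that takes up ISG15 and also activates the RNA sensor RIG-I, had smaller differences of -0.63 to -1.08.

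All 4 genes of antigen processing were lower in Th17 cells in all 4 comparisons, with median differences of -1.25, -1.14, -1.28 and -1.23. Psmb9, a subunit of the immunoproteasome, had log2 levels of 12.73, 12.89, 12.49, 12.58 and 12.71 in WT Th1 and 10.81, 11.22, 11.12, 11.04 and 11.36 in WT Th17 arrays at 48 h. At 72 h the levels were 12.90, 12.92, 12.99, 12.90 and 13.31 in WT Th1 and 11.73, 11.66, 11.99, 11.26 and 11.46 in WT Th17 arrays. The lineages did not overlap, and the arrays within each group lay close together.

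Malt1-/- arrays repeated this for Psmb9, with 12.71, 12.74, 12.60, 12.81 and 12.79 in Th1 and 11.52, 11.23, 11.27, 11.12 and 11.27 in Th17 at 48 h. The 72 h levels were 13.31, 12.71, 13.11, 12.77 and 13.26 in Th1 and 11.89, 11.61, 11.35, 11.12 and 11.46 in Th17. The Th1 level was 2.97-, 2.6-, 2.73- and 2.91-fold higher in the 4 comparisons, and the limma adjusted p was at most 3.47e-09. Tap1, a subunit of the pump that carries peptides into the endoplasmic reticulum, gave 8.90, 9.27, 9.14, 8.81 and 9.38 in WT Th1 and 6.74, 7.21, 6.92, 6.97 and 7.86 in WT Th17 arrays at 48 h. At 72 h Tap1 gave 9.23, 9.12, 9.68, 8.77 and 8.91 in WT Th1 and 8.13, 7.76, 7.95, 6.55 and 7.24 in WT Th17 arrays. WT Th1 arrays were all above WT Th17 arrays at both times, and Th17 minus Th1 was -1.96 and -1.62. In Malt1-/- arrays the Tap1 differences were -1.88 and -1.70.

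Psmb8 and Psmb10, the other immunoproteasome subunits, had Th1 levels 1.53- to 2.09-fold and 1.86- to 2.17-fold higher. Psmb9, Tap1 and Psmb8 are neighbours on chromosome 17 (34182030 to 34201454, GRCm38.p6) within the MHC, whereas Psmb10 lies on chromosome 8.

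Among the GTPases, which act against intracellular pathogens, Igtp was the one lower in all 4 comparisons. Its log2 levels were 12.54, 13.04, 12.80, 12.91 and 12.99 in WT Th1 and 11.23, 10.998, 10.99, 10.69 and 10.86 in WT Th17 arrays at 48 h. At 72 h they were 12.97, 12.79, 12.86, 12.47 and 12.997 in WT Th1 and 11.66, 11.55, 11.83, 11.51 and 10.87 in WT Th17 arrays. Every Th1 array was above every Th17 array, and the Th1 level was 3.74-fold higher at 48 h (limma adjusted p 9.48e-13) and 2.52-fold higher at 72 h (limma adjusted p 7.78e-09). The Malt1-/- arrays gave 12.86, 12.68, 12.64, 12.72 and 12.70 in Th1 and 10.59, 11.08, 10.95, 10.86 and 10.80 in Th17 at 48 h. They gave 12.81, 12.57, 13.01, 12.53 and 12.73 in Th1 and 11.36, 11.05, 11.42, 11.18 and 11.41 in Th17 at 72 h. Again the lineages stood apart, by 3.64-fold and 2.73-fold.

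Gbp2, a guanylate-binding protein, was called between lineages in the 48 h comparisons and not in the 72 h comparisons. WT arrays at 48 h gave 14.54, 13.75, 13.73, 13.72 and 13.71 in Th1 and 11.89, 11.76, 12.47, 11.57 and 13.84 in Th17. WT arrays at 72 h gave 13.38, 12.43, 12.66, 14.63 and 14.34 in Th1 and 13.55, 12.89, 12.47, 14.63 and 13.71 in Th17. The 48 h groups overlapped through Th17 replicate 5 and the 72 h groups overlapped widely. The difference was -1.59 ± 0.39 at 48 h and -0.04 ± 0.39 at 72 h, with -2.43 and -0.74 in Malt1-/- arrays, and the change of the lineage difference with time was not tested. For Irgm1 the brightest probe gave -0.42 in WT arrays at 72 h, not called, while its other kept probes gave -1.95 and -1.97, both called in a fit over probes. The count for this gene therefore depends on the probe.

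The interferon regulatory factors and STAT2 carry the signal into the nucleus. Irf1, an interferon-induced factor that drives antigen-processing genes, had log2 levels of 12.92, 12.79, 12.88, 12.999 and 13.04 in WT Th1 and 10.41, 10.12, 10.75, 10.71 and 11.76 in WT Th17 arrays at 48 h. At 72 h it had 12.36, 12.17, 12.31, 13.14 and 12.90 in WT Th1 and 11.72, 11.24, 11.43, 12.01 and 11.71 in WT Th17 arrays. The lineages did not overlap, and the Th1 level was 4.52-fold and 1.94-fold higher. In Malt1-/- arrays Irf1 was 3.45-fold and 2.69-fold higher in Th1. All 5 kept probes of Irf1 were lower in Th17 in each of the 4 comparisons.

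Irf7, which amplifies type I interferon production, was detected on 0 of 20 Th17 arrays. In Th1 arrays its log2 levels were 5.67, 6.22, 4.67, 6.23 and 5.37 for WT at 48 h and 7.51, 6.91, 6.43, 4.56 and 6.32 for WT at 72 h. Malt1-/- Th1 arrays gave 4.94, 6.33, 4.79, 5.15 and 5.17 at 48 h and 7.77, 5.44, 7.83, 5.75 and 7.34 at 72 h. WT replicate 3 at 48 h, WT replicate 4 at 72 h and Malt1-/- replicates 1 and 3 at 48 h lay within the range of the Th17 arrays, and the other Th1 arrays lay above it. The Th1 level was at least 2.15-fold higher in WT and at least 2.96-fold higher in Malt1-/- arrays at 72 h (limma adjusted p 0.0032 and 3.98e-05), and the 48 h comparisons were not called.

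Stat2, a subunit of the ISRE-binding complex, was called at 72 h with -0.96 in WT and -1.79 in Malt1-/- arrays. Its WT Th1 arrays at 72 h read 8.07, 8.37, 8.43, 5.89 and 8.44 and its WT Th17 arrays 7.40, 6.60, 7.02, 6.58 and 6.81. Th1 replicate 4 lay below all 5 Th17 arrays, so the groups overlapped. Malt1-/- arrays read 8.78, 7.74, 8.55, 7.84 and 8.29 in Th1 and 6.29, 6.29, 6.08, 6.64 and 6.98 in Th17, without overlap. The WT call was lost under 11 of 19 alternatives, the Malt1-/- call under 0.

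Irf8, which T cells and myeloid cells use in differentiation, had 11.83, 12.40, 12.49, 12.54 and 12.96 in WT Th1 and 11.32, 11.31, 10.93, 10.73 and 9.73 in WT Th17 arrays at 48 h. In Malt1-/- arrays the 48 h levels were 11.12, 11.31, 11.13, 11.32 and 11.42 in Th1 and 9.66, 10.76, 10.77, 10.92 and 11.15 in Th17. The WT lineages stood apart and the Malt1-/- lineages overlapped, with differences of -1.64 and -0.61, of which the second was not called. At 72 h Irf8 was called in both genotypes (-1.89 and -1.05). Irf9, the DNA-binding subunit of the ISRE-binding complex, was called in Malt1-/- arrays at 48 and 72 h (-0.74 and -1.23) and not in WT arrays (-0.45 and -0.47). The differences between genotypes in these lineage effects are given with the MALT1 comparisons.

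The sensors and the OAS family recognise viral nucleic acids. Eif2ak2 (PKR), the kinase that halts translation on double-stranded RNA, was 3.54- to 5.96-fold higher in Th1 arrays in the 4 comparisons. Ifih1 (MDA5), a cytosolic RNA sensor, was called in all 4, and Zbp1, a sensor of Z-form nucleic acid, in 3. Dhx58 (LGP2), a regulator of RIG-I and MDA5, was called in Malt1-/- arrays at 72 h alone, at -2.96. Of the OAS genes, a family named for enzymes that make the activator of RNase L, 1 of 4 was lower in WT arrays at 48 h, 3 in WT arrays at 72 h, 0 in Malt1-/- arrays at 48 h and 3 in Malt1-/- arrays at 72 h.

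Oas3 was detected on 0 of 20 Th17 arrays. Its Th1 levels were 4.65, 5.47, 5.03, 5.66 and 5.01 in WT arrays at 48 h and 6.75, 7.49, 7.15, 4.60 and 6.92 in WT arrays at 72 h. In Malt1-/- Th1 arrays they were 4.70, 6.47, 4.93, 5.32 and 5.65 at 48 h and 7.55, 4.66, 7.35, 6.48 and 7.23 at 72 h. Each 72 h group held 1 array at the level of the Th17 arrays, replicate 4 in WT and replicate 2 in Malt1-/-, and 4 arrays well above it. The Th1 level at 72 h was at least 2.53-fold higher in WT and at least 2.63-fold higher in Malt1-/- arrays. Oasl1, which restrains translation of Irf7 mRNA in mice, was at least 6.81-fold and 11.4-fold higher in the same comparisons, and Oasl2, an OAS-like protein, at least 6.92-fold and 10.2-fold. Oas2 was not called in any of them.

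Of the 11 tested antiviral effectors, 4 were lower in Th17 in WT arrays at 48 h, 8 in WT arrays at 72 h, 2 in Malt1-/- arrays at 48 h and 8 in Malt1-/- arrays at 72 h. Rsad2 (viperin), which makes a chain-terminating nucleotide, was at least 5.66-fold higher in WT and at least 10.6-fold higher in Malt1-/- Th1 arrays at 72 h. Mx2, a dynamin-like GTPase, was 7.35-fold higher in WT arrays, where it was detected on 1 of 5 Th17 arrays, and at least 8.2-fold higher in Malt1-/- arrays. Bst2 (tetherin), which holds budding virions on the cell, was 3.94-fold and 4.64-fold higher at 72 h and was not called at 48 h. Parp14, an ADP-ribosyltransferase, was called in all 4 comparisons, from -1.01 to -1.73.

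Mx1, a gene related to Mx2, was detected on 0 of 20 Th17 arrays. Its Th1 levels were 4.72, 6.22, 5.68, 5.32 and 5.32 in WT arrays at 48 h and 7.10, 5.82, 5.79, 4.61 and 6.04 at 72 h. In Malt1-/- Th1 arrays they were 4.82, 5.63, 4.59, 5.46 and 4.48 at 48 h and 7.34, 5.78, 7.18, 5.49 and 6.42 at 72 h. At 48 h several Th1 arrays did not exceed the Th17 range, and at 72 h all but WT replicate 4 did. Ifit3, an RNA-binding protein of the IFIT family, read 7.24, 6.36, 6.73, 6.17 and 5.65 in Malt1-/- Th1 arrays at 72 h and 5.45, 5.77, 4.72, 5.07 and 5.25 in Malt1-/- Th17 arrays. The groups overlapped and the difference of -1.18 ± 0.38 was called (limma adjusted p 0.0222), whereas the other 3 comparisons were not. Ifit3 was detected on 2 of these 5 Th17 arrays and on 1, 1 and 0 of 5 in the other Th17 groups. Samhd1, which depletes nucleotides, was called in Malt1-/- arrays (-0.98 and -1.20), with -0.40 and -0.45 in WT arrays, not called.

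The IFITM proteins sit in membranes and block virus entry. Ifitm3 levels were 9.89, 10.94, 9.93, 10.54 and 9.37 in WT Th1 and 7.26, 7.14, 6.38, 6.95 and 5.24 in WT Th17 arrays at 48 h. At 72 h they were 12.09, 12.09, 12.50, 9.98 and 12.86 in WT Th1 and 7.62, 8.37, 6.31, 6.06 and 4.69 in WT Th17 arrays. The lineages did not overlap, and the Th1 level was 11.6-fold and 39.3-fold higher. In Malt1-/- arrays the folds were 9.22 and 9.21. Ifitm2 differed by -3.61, -2.48, -3.37 and -1.24, all called.

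For Ifitm1 the direction depended on the probe. The brightest probe, used in the counts, gave -1.996 and -2.14 in WT arrays, both called lower in Th17. Another probe detected on all 40 arrays gave 2.22 and 2.18, both called higher in a fit over the 20739 kept probes. In Malt1-/- arrays that probe gave 2.73 and 3.93. No direction is therefore stated for Ifitm1 between the lineages.

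**Figure D3:**
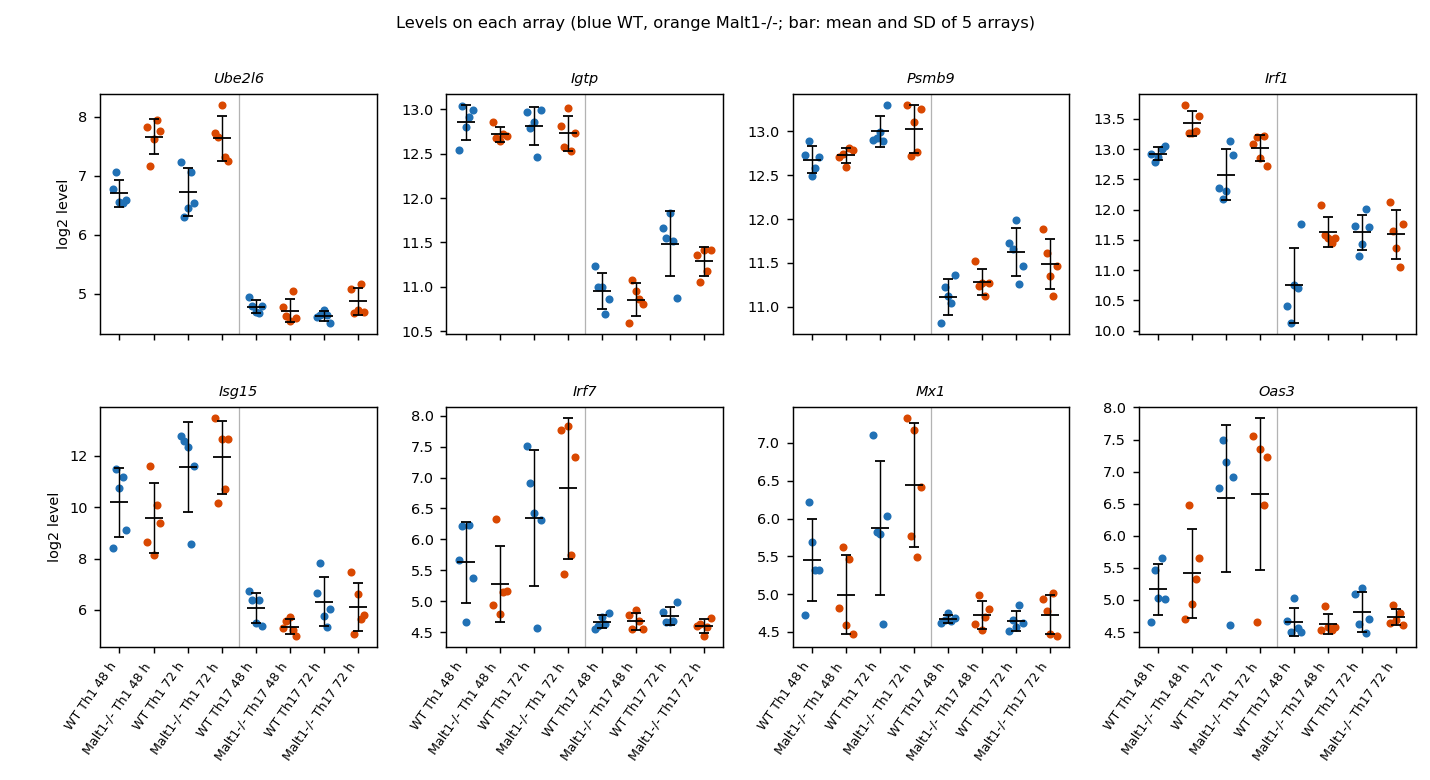
Each panel is 1 gene, with the log2 level of each of 40 arrays by group, 5 points a group, and black bars for the mean and SD. Ube2l6, Igtp, Psmb9 and Irf1 in the upper row have every Th1 array above every Th17 array. Isg15, Irf7, Mx1 and Oas3 in the lower row spread widely within the Th1 groups, with WT Th1 72 h replicate 4 at or near the Th17 level for Irf7, Mx1 and Oas3.

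The spread between Th1 arrays of a group differed widely among the genes. The pooled SD within the 4 Th1 groups was 1.55 for Rsad2, 1.5 for Oasl1, 1.48 for Isg15, 1.44 for Oasl2 and 1.31 for Usp18, on the log2 scale. It was 0.18 for both Igtp and Psmb9, 0.29 for Tap1 and 0.26 for Irf1. In the 4 Th17 groups the SD of Rsad2 was 0.13 and that of Oasl1 0.32, where both were mostly below detection. For Ifitm2 and Gbp3 the Th17 spread was the larger, 0.88 against 0.34 and 0.81 against 0.37. The fit pools the groups, so for such genes the SE is too small within the lineage of wide spread and too large within the other.

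The interferon genes themselves were read beside this spread. Ifng, which encodes interferon gamma, was lower in Th17 by -7.67, -7.91, -5.51 and -6.22 in the 4 comparisons. Ifnb1, which encodes interferon beta, was detected on 0 of 20 Th17 arrays and on 2, 3, 2 and 5 of 5 arrays in WT Th1 at 48 and 72 h and Malt1-/- Th1 at 48 and 72 h. Its log2 levels were 4.62, 6.58, 4.82, 6.10 and 4.49 at 48 h and 6.91, 6.48, 6.25, 4.57 and 4.49 at 72 h in WT Th1 arrays. In Malt1-/- Th1 arrays they were 4.64, 6.76, 4.42, 5.35 and 4.81 at 48 h and 8.78, 5.99, 7.30, 5.84 and 6.25 at 72 h. The arrays high for Ifnb1, such as WT Th1 48 h replicates 2 and 4 and Malt1-/- Th1 72 h replicates 1 and 3, were also high for Isg15 and Irf7. WT Th1 72 h replicate 5 departed from this, with the lowest Ifnb1 of its group (4.49) beside Isg15 at 11.60 and Irf7 at 6.32. Ifnb1 was detected on 12 of the 20 Th1 arrays, so part of its range is background.

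This relation was measured after those values had been seen. Within the 4 Th1 groups (20 arrays), the slope of each gene on the level of Ifnb1 was fitted with limma across 10729 genes. The slope was positive and called for 16 of 39 interferon-stimulated genes, against 1.94% of all genes, and negative for 0, against 0.466%. Rsad2 changed by 1.28 ± 0.16 (SE) log2 units per log2 unit of Ifnb1, Oasl1 by 1.21 ± 0.16, Oasl2 by 1.16 ± 0.16 and Isg15 by 1.14 ± 0.18. Of the 8 GTPase and antigen-processing genes 0 were called, with Igtp at 0.07 ± 0.05, Psmb9 at 0.05 ± 0.05 and Gbp2 at -0.27 ± 0.10. Without the 2 arrays farthest from the median Ifnb1 deviation (Malt1-/- Th1 72 h replicate 1 and Malt1-/- Th1 48 h replicate 2), 12 were called, and 3 in the WT and 10 in the Malt1-/- arrays alone.

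On Ifng the slope was positive and called for 17 of the 39 genes, against 1.76% of all genes, and negative for 0, against 0.205%. Isg15 changed by 2.16 ± 0.39 per log2 unit of Ifng and Irf1 by -0.25 ± 0.12, the latter not called. Without the same 2 arrays the count on Ifng was 1, and it was 1 in the WT and 0 in the Malt1-/- arrays alone. The Ifng and Ifnb1 levels come from the same arrays as the other genes and share any array-wide factor, whose part was not tested.

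Other genes of the pathway were taken from lists chosen by name. Of 21 tested genes upstream of the set (interferons, receptors, kinases, regulators and sensors), 2, 2, 5 and 6 were lower and 1, 1, 2 and 1 higher in Th17. The order is WT at 48 and 72 h and Malt1-/- at 48 and 72 h. The shares lower were 9.52%, 9.52%, 23.8% and 28.6%, against 7.26%, 9.2%, 8.72% and 9.16% of all genes. The shares higher were 4.76%, 4.76%, 9.52% and 4.76%, against 10.2%, 9.66%, 9.83% and 11.6%. The receptor gene Ifngr1 was not called between lineages (0.86, 0.86, 0.36 and 0.80), nor was the type I receptor gene Ifnar2. Ifngr2, the other chain of the interferon gamma receptor, was higher in Th17 by 1.12 in WT arrays at 72 h. Jak2, a kinase of that receptor, was lower by -1.31, -1.81 and -1.59, and was not called in WT arrays at 72 h (-0.43). Ifnar1 did not reach the detection filter.

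Of 21 tested further interferon targets, 13, 13, 13 and 15 were lower in Th17 and 1, 0, 0 and 0 higher. The shares lower were 61.9%, 61.9%, 61.9% and 71.4%, against the shares of all genes given above. Irgm2, a relative of Igtp, differed by -1.89, -1.18, -2.03 and -1.52. Gbp5 differed by -3.49, -1.48, -2.82 and -1.94, and Nlrc5, the activator of MHC class I genes, by -1.37, -1.22, -0.86 and -1.15. Markers of the cells in culture and of other cells did not move one way. Of the 2 tested dendritic markers of 5 listed, Zbtb46 was lower in Th17 in 3 of the 4 comparisons and detected on 0 of 20 Th17 arrays, and Siglech was not called (0.22, 0.14, 0.38 and -0.01). Their summed signal ran from 57.3 to 131 over the 20 Th1 arrays and from 54.2 to 89.5 over the 20 Th17 arrays. Klrd1, the tested NK marker of 3 listed, was higher in Th17 in all 4, by 3.27, 2.40, 3.39 and 3.10. Of 6 tested myeloid markers of 8 listed, 0 were called in the WT comparisons, and 4 and 5 were higher in Th17 in Malt1-/- arrays at 48 and 72 h. Of 4 tested T cell markers of 7 listed, Cd4 was lower in Th17 in 3 comparisons, by -1.10, -1.03 and -0.92, Cd3e was higher in WT arrays at 72 h by 0.67, and Cd3d and Cd3g were not called. The part of these markers in the results was not tested.

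The second comparison asked whether loss of MALT1 changed the set. Few of its genes differed between Malt1-/- and WT arrays. Of 39 genes, 1 was higher and 0 lower in Th17 at 48 h, where 3.41% of all genes were higher and 2.97% lower. In Th17 at 72 h 3 were higher and 1 lower, against 2.89% and 1.53%. In Th1 at 48 h 1 was higher and 1 lower, against 0.783% and 0.606%, and in Th1 at 72 h 2 were higher and 0 lower, against 1.85% and 0.923%. The median difference of the 39 genes was -0.03, -0.03, -0.04 and 0.30, against medians of all genes between -0.01 and 0.04. With the 9 arrays nearer another group left out, which narrows the groups by construction, 3, 5, 3 and 3 genes were called in either direction. The IFITM genes, called in Th17 at 72 h with all arrays, were then not called. The arrays left out of that comparison were WT replicates 4 and 5 and Malt1-/- replicates 2 and 4. The shares of all genes given above belong to the fit of all arrays.

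**Figure D4:**
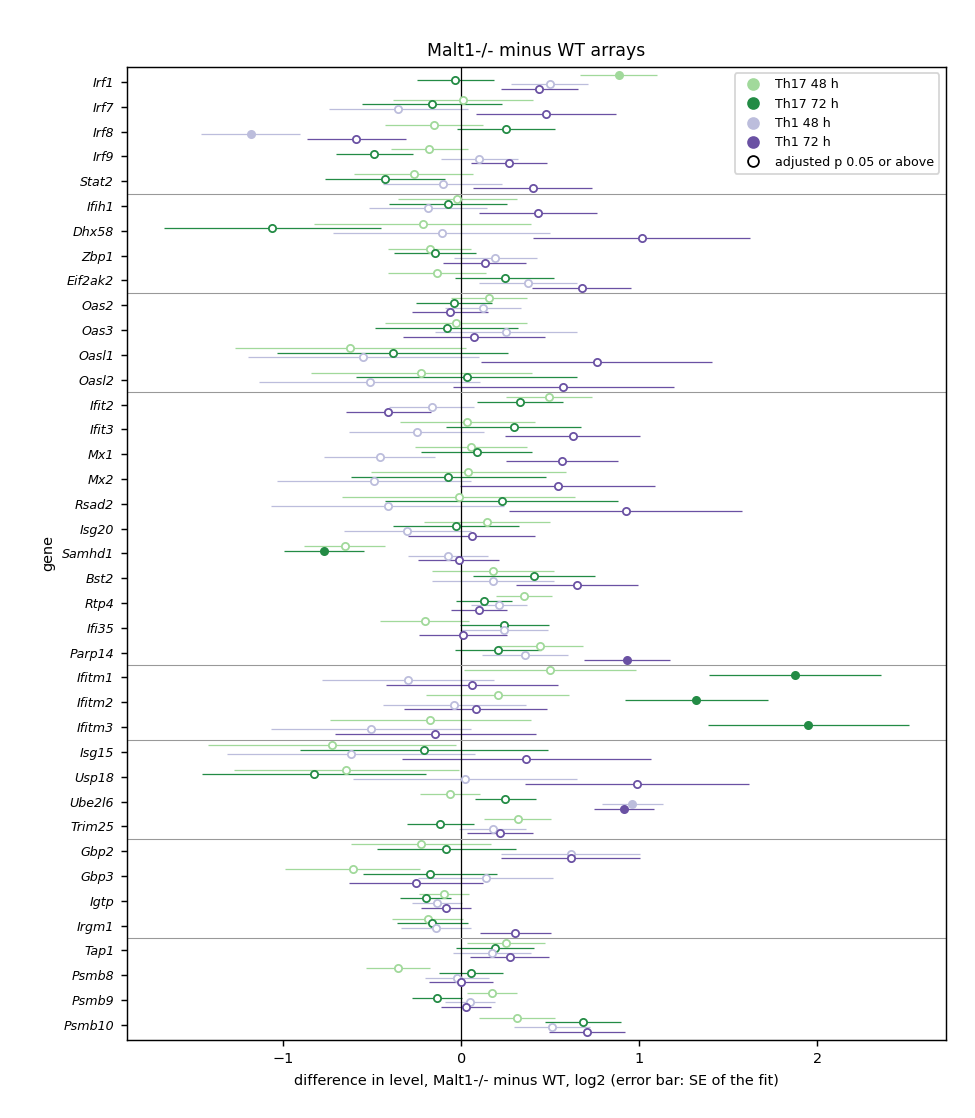
Each row is 1 of the 39 tested genes and the horizontal axis is the difference in log2 level, Malt1-/- minus WT. Colours mark the 4 pairs of lineage and time, bars are the standard error of the fit, and filled points passed the adjusted p of 0.05. Most points lie within 1 of 0, and the filled points are Irf1, Irf8, Samhd1, Parp14, the 3 IFITM genes and Ube2l6.

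In Th17 cells at 48 h Irf1 was higher in Malt1-/- arrays, 12.07, 11.58, 11.53, 11.45 and 11.54, than in WT arrays, 10.41, 10.12, 10.75, 10.71 and 11.76. WT replicate 5 reached the Malt1-/- range and the other four WT arrays lay below it. The difference was 0.88 ± 0.22, 1.85-fold (limma adjusted p 0.0147), and the 72 h difference was not called (-0.03). The other kept probes of Irf1 gave 0.89, 0.78, 0.31 and 0.26 at 48 h, none called. Without WT Th17 48 h replicate 2 the call was lost, and the count for this comparison was then 0. The Irf1 call was also lost with the mean of kept probes and when the fit used only the arrays compared. In that last fit 2 other genes were called, as lower in Malt1-/- arrays.

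In Th17 cells at 72 h the 3 IFITM genes were higher in Malt1-/- arrays. Ifitm1 read 9.80, 12.48, 11.51, 10.64 and 11.23 in Malt1-/- and 9.52, 10.75, 8.93, 8.96 and 8.12 in WT arrays. Ifitm2 read 9.96, 10.92, 10.26, 9.94 and 9.87 in Malt1-/- and 9.64, 9.97, 10.06, 8.02 and 6.65 in WT arrays. Ifitm3 read 7.499, 9.91, 8.397, 7.95 and 9.04 in Malt1-/- and 7.62, 8.37, 6.31, 6.06 and 4.69 in WT arrays. All 3 pairs of groups overlapped, and WT replicates 4 and 5 were the lowest for Ifitm2 and Ifitm3.

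The differences were 1.88 ± 0.48, 1.32 ± 0.40 and 1.95 ± 0.56, or 3.67-, 2.5- and 3.86-fold (limma adjusted p 0.023, 0.0498 and 0.0416). Another probe of Ifitm1 gave 2.12, called over probes, and the probe that opposed the lineage direction gave 1.84, not called. The 3 genes are neighbours on chromosome 7 (140954837 to 141010744, GRCm38.p6) and share sequence, so signal between their probes may not be fully separate.

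Some markers of myeloid cells were also higher in these arrays. Of 6 tested myeloid markers of 8 listed, 4 were higher in Malt1-/- Th17 arrays at 72 h. S100a8, a calcium-binding protein of neutrophils and monocytes, read 7.37, 10.44, 8.73, 7.32 and 11.77 in Malt1-/- arrays and was detected on 0 WT Th17 arrays at 72 h, where it read 4.45, 4.54, 4.55, 4.78 and 4.80. S100a9, its partner, read 6.29, 9.10, 7.497, 5.99 and 10.77 in Malt1-/- and 4.38, 4.60, 4.48, 4.48 and 4.41 in WT arrays. Malt1-/- replicates 2 and 5 were the highest for both S100 genes, and the same 2 arrays were the highest for Ifitm3. For Ifitm1 and Ifitm2 the highest arrays were replicates 2 and 3, and replicate 5 was the lowest for Ifitm2.

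The Malt1-/- level was at least 14.8-fold higher for S100a8 and at least 6.44-fold higher for S100a9, which was also detected on 0 of these WT arrays. The differences were 2.48 for Lyz1, detected on 2 of 5 WT arrays, and 1.32 for Fcer1g, with Lyz2 at 0.66 and Csf1r at -0.10, not called. Csf1r, the receptor of macrophage colony-stimulating factor, was detected on 0 of these 5 Malt1-/- arrays. The summed signal of the 6 markers ran from 539.7 to 6145 in Malt1-/- and from 190.6 to 336.7 in WT Th17 arrays at 72 h. At 48 h it ran from 300.7 to 1943 and from 221.1 to 316.4, where the IFITM genes were not called (0.50, 0.20 and -0.17). S100a8 was already called higher in Malt1-/- arrays at 48 h (limma adjusted p 0.0276), and the other 5 markers were not called. Of 4 tested T cell markers, Cd4, the marker of the starting cells, was lower in Malt1-/- Th17 arrays at 72 h by -0.89. Cd3d, Cd3e and Cd3g were not called. Cd8b1, the tested CD8 T cell marker of 2 listed, was lower in the same comparison by -0.65. The part of such cells in the IFITM result was not tested.

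**Figure D5:**
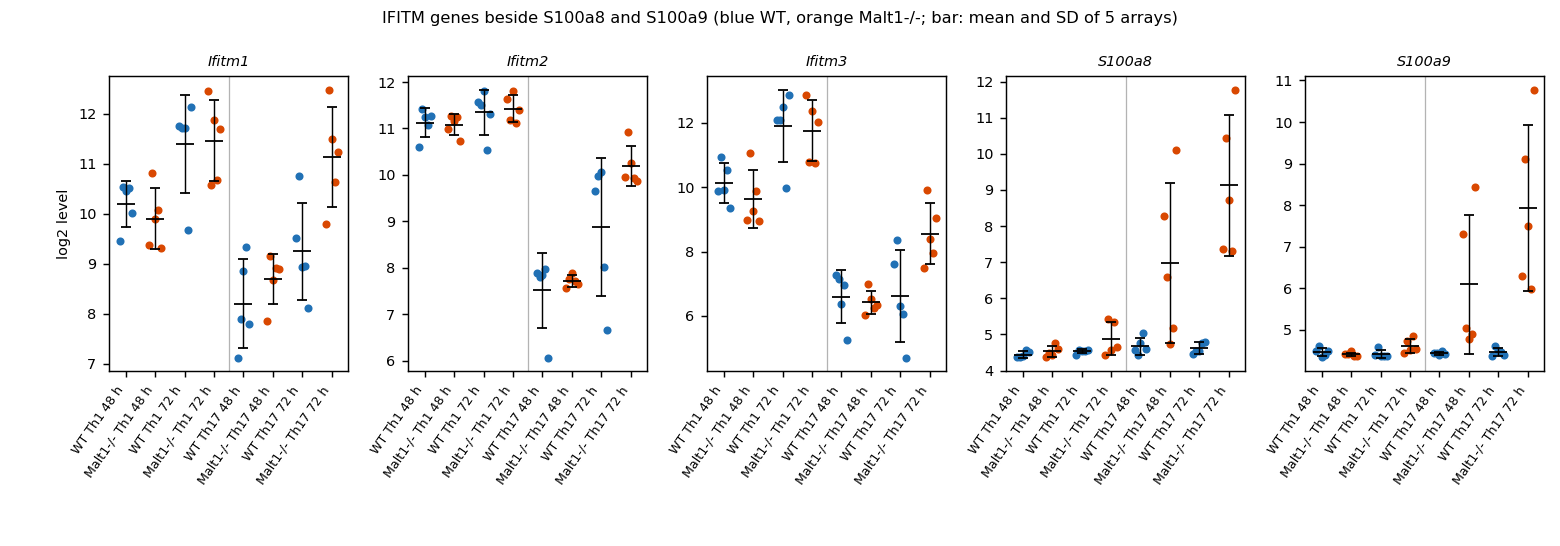
Each panel is 1 gene, with the log2 level of each array by group, 5 points a group, and black bars for the mean and SD. In Malt1-/- Th17 arrays at 72 h the 3 IFITM genes and the myeloid markers S100a8 and S100a9 are all above their mean in WT Th17 arrays, and in Th1 arrays the IFITM genes are high while the S100 genes are low.

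Samhd1 was lower in Malt1-/- Th17 arrays at 72 h, 11.12, 11.35, 11.93, 11.82 and 10.93 against 12.38, 11.56, 12.58, 12.32 and 12.16 in WT arrays. At 48 h it read 10.70, 10.97, 11.001, 10.80 and 10.80 against 11.46, 11.27, 11.53, 11.19 and 12.09. The 48 h groups did not overlap and the 72 h groups did. The difference was -0.77 ± 0.23 at 72 h (limma adjusted p 0.0454) and -0.65 ± 0.23 at 48 h, which was not called (limma adjusted p 0.0722).

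Each of the 4 calls at 72 h rested on single arrays. The count was 0 without Malt1-/- Th17 72 h replicate 2 or replicate 5, 1 without WT Th17 72 h replicate 3, and 2 when WT replicate 1, WT replicate 4, Malt1-/- replicate 1 or Malt1-/- replicate 3 was left out. It was 0 when the fit used the 10 arrays compared alone. Without the 9 arrays nearer another group, which include WT replicates 4 and 5, the IFITM calls were all lost.

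In Th1 cells Ube2l6 was higher in Malt1-/- arrays at both times, with the array values given above. The 5 Malt1-/- arrays lay above the 5 WT arrays at 48 h and again at 72 h. The differences were 0.96 ± 0.17 and 0.91 ± 0.17, 1.95-fold and 1.88-fold (limma adjusted p 0.000821 and 0.000827). Its second kept probe gave 1.01, called over probes, and 0.56, not called. No other gene of the ISG15 system was called, with Isg15 at -0.62 and 0.37 and Usp18 at 0.02 and 0.99.

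Irf8 was lower in Malt1-/- Th1 arrays at 48 h, with the values already given, all 5 below the 5 WT arrays. The difference was -1.18 ± 0.28, 2.27-fold (limma adjusted p 0.0171). At 72 h Irf8 read 11.19, 11.18, 11.22, 11.37 and 11.61 in Malt1-/- and 12.24, 12.11, 11.62, 11.82 and 11.73 in WT Th1 arrays. These groups again did not overlap, and the difference of -0.59 ± 0.28 was not called (limma adjusted p 0.276). Without WT Th1 48 h replicate 5 the 48 h call was lost and the count was 1.

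Parp14 was higher in Malt1-/- Th1 arrays at 72 h, 11.70, 10.63, 11.07, 10.90 and 10.73 against 10.93, 9.65, 9.76, 9.56 and 10.48. WT replicate 1 lay inside the Malt1-/- range. The difference was 0.93 ± 0.24 (limma adjusted p 0.0244), and 0.36 at 48 h was not called. The call was lost without WT Th1 72 h replicate 2, 3 or 4 or Malt1-/- replicate 1. The count was 1 without WT replicate 2 or 3 or Malt1-/- replicate 1.

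Of the 21 further interferon targets, 2, 1, 0 and 2 were higher in Malt1-/- arrays and 0 lower, in the order Th17 at 48 and 72 h and Th1 at 48 and 72 h. Tap2, the partner of TAP1 in the peptide pump, was among them in 3 comparisons, at 0.82, 0.61 and 0.80, and gave 0.60 in the other, while Tap1 gave 0.25, 0.19, 0.27 and 0.17, not called. Of the 21 upstream genes, 1, 0, 0 and 2 were higher and 0 lower. In either list 1 call makes up 4.76%. Over all genes 3.41%, 2.89%, 0.783% and 1.85% were higher and 2.97%, 1.53%, 0.606% and 0.923% lower in the same order. Jak2 was higher in Malt1-/- Th1 arrays at 72 h by 0.92. Ifng was not called between genotypes (1.22, 1.55, -0.94 and -0.13).

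The third comparison asked how the set moved between 48 and 72 h. With all 40 arrays, all calls were higher at 72 h. In WT Th17 cells 6 of 39 genes were higher and 0 lower, where 4.97% of all genes were higher and 7.36% lower. In WT Th1 cells 3 were higher and 0 lower, against 5.57% and 4.92%. In Malt1-/- Th17 cells 2 were higher and 0 lower, against 0.578% and 0.121%. In Malt1-/- Th1 cells 13 were higher and 0 lower, against 4.15% and 1.8%, and the median difference of the 39 genes was 0.61 there, 0.42 in WT Th1, 0.16 in WT Th17 and 0.13 in Malt1-/- Th17 cells. With the 9 arrays nearer another group left out, 11 genes were higher and 1 lower in WT Th17 and 14 and 1 in WT Th1 cells. The counts were then 7 and 0 in Malt1-/- Th17 and 21 and 0 in Malt1-/- Th1 cells. That choice of arrays narrows the groups by construction, so the larger counts are no added support. The shares of all genes given above belong to the fit of all arrays and not to these larger counts.

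The 13 genes of Malt1-/- Th1 cells were Irf7, Stat2, Dhx58, Oasl1, Oasl2, Mx1, Mx2, Rsad2, Samhd1, Ifitm1, Ifitm3, Isg15 and Usp18, and 0 of the GTPases and antigen-processing genes. Mx1 was detected on 2 of 5 arrays at 48 h and Irf7 on 1 of 5, so the sizes of their rises rest on 48 h levels mostly below detection. Mx1, whose array values stand above, rose by 1.45 ± 0.31, 2.72-fold (limma adjusted p 0.00452), and Irf7 by 1.55 ± 0.39, 2.92-fold (limma adjusted p 0.0153). Both groups overlapped for each gene, since Malt1-/- Th1 48 h replicate 2 was high and 72 h replicates 2 and 4 were low. Rsad2 rose 5.7-fold, Oasl1 5.8-fold, Isg15 5.17-fold and Usp18 4.57-fold. Ifnb1 rose by 1.64 in the same comparison, with 2 of 5 arrays detecting it at 48 h (limma adjusted p 0.0285).

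These counts moved with single arrays. In Malt1-/- Th1 cells the count was 1 without 48 h replicate 3 or 72 h replicate 1, 3 without 72 h replicate 3 or 5, and 4, 7 and 5 without 48 h replicate 1, 4 and 5. Without Malt1-/- Th1 48 h replicate 2 it was 18.

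In WT Th1 cells the called genes were Oas3, Samhd1 and Ifitm3, and 3 of the genes that rose in Malt1-/- Th1 cells gave 0.42 for Mx1, 0.72 for Irf7 and 1.38 for Isg15, not called. Oas3 rose by 1.42 ± 0.40 (limma adjusted p 0.0211), from the values given above, with replicate 4 at 72 h as low as the 48 h arrays, of which 2 of 5 detected it. Samhd1 read 12.80, 12.81, 12.97, 12.00 and 12.65 at 72 h and 11.86, 12.31, 11.93, 11.98 and 11.46 at 48 h. The groups overlapped through replicate 4 at 72 h and replicate 2 at 48 h, and the difference was 0.74 ± 0.23. Without WT Th1 72 h replicate 4 the count was 17, without WT Th1 48 h replicate 1 or 5 or 72 h replicate 2, 3 or 5 it was 0, and without 72 h replicate 1 it was 1.

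In WT Th17 cells the called genes were Irf1, Samhd1, Ifitm2, Gbp2, Igtp and Psmb9. Irf1 rose by 0.87 ± 0.22 (limma adjusted p 0.0088) and Igtp by 0.53 ± 0.14 (limma adjusted p 0.0134), from the values given above. Their groups overlapped because 48 h replicate 5 of Irf1 was as high, and 72 h replicate 5 of Igtp as low, as the other time. The count was 3 without WT Th17 48 h replicate 1 or 72 h replicate 1 and 2 without 72 h replicate 3. Among the further targets, Gbp5 rose by 2.04 and Irgm2 by 0.79 in the same cells, and the receptor gene Ifngr1 rose by 1.05. Irgm2 was also called in Malt1-/- Th17 cells, at 0.53, and Ifngr1 in WT Th1 cells, at 1.05.

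In Malt1-/- Th17 cells Ifitm1 and Ifitm2 rose. Ifitm1 read 7.86, 9.15, 8.68, 8.92 and 8.90 at 48 h and Ifitm2 7.57, 7.75, 7.89, 7.72 and 7.64, below every one of the 72 h values given above. The differences were 2.43 ± 0.48 and 2.48 ± 0.40 (limma adjusted p 0.00757 and 0.000991). Ifitm3 gave 2.14, not called (limma adjusted p 0.0617). Of 6 tested myeloid markers, Lyz1 was called in the same comparison, at 1.56, and the other 5 were not. The differences of the 6 markers ran from -0.08 to 2.15.

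The last comparison asked whether the effect of MALT1 loss differed between lineages or times. Limma called 0 of 39 genes in each of the 4 tests of such a difference, where 0.14% of all genes were called for Th17 against Th1 at 48 h, 0.699% for Th17 against Th1 at 72 h, 0.121% for 72 against 48 h in Th17 and 0.0746% for 72 against 48 h in Th1 cells. At an unadjusted p under 0.05 the counts were 2, 11, 2 and 1 of 39, against 11%, 10.4%, 16.5% and 5.58% of all genes. Ube2l6 had the smallest p of the set in both tests between lineages. The difference at 48 h was -1.02 ± 0.24 (limma adjusted p 0.0508), and the probe used was not well above background on any Th17 array.

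At 72 h the difference in MALT1 effect, Th17 minus Th1, was 1.81, 1.24 and 2.09 for Ifitm1, Ifitm2 and Ifitm3, while the median of the 39 genes was -0.34 and that of all genes 0.03. For Irf8 the difference was 1.03 at 48 h and 0.84 at 72 h, for Irf9 -0.28 and -0.76, and for Samhd1 -0.58 and -0.76. None of these was called. Jak2, from the upstream list, was called at 72 h with -1.16 ± 0.26 (limma adjusted p 0.0178).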

How the data were processed

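RNA of 40 samples was labelled and hybridised to Illumina bead arrays, per the labels' protocols. The authors deposited raw, non-normalised probe intensities with a detection p-value for each probe, per the file headers, and a value table of log2 values. Those deposited log2 values differed by at most 0.0149 from quantile-normalised log2 intensities centred on each probe, so they hold no level and served as an alternative. The software and scanner are not given in the sources used here.

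Intensities were corrected with limma's nec (limma 3.58.1, R 4.3.3, offset 16) from the detection p-values, quantile-normalised and then logged to base 2. Of 45281 probes, 20739 had a detection p-value under 0.05 on at least 5 arrays. The platform annotation gave 34885 probes 1 gene symbol, gave 18 several and did not list 10378, and the kept probe of highest mean stood for each gene (4274 genes had more than 1). One limma fit of 8 group means gave 16 comparisons over 10730 genes, with the threshold at 0.05 after Benjamini-Hochberg adjustment. No batch or slide is named. On data simulated for Malt1-/- minus WT in Th17 at 72 h with 10730 genes, the fit recovered 76 of 100 genes shifted by 1 and 100 of 100 shifted by 2 on the log2 scale, with 6 false calls. Whether these counts hold for the measured arrays, with their unequal spread and their arrays nearer another group, was not tested.

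The genes and lists were chosen with earlier results of these data known. Array values are given for the 4 called genes of smallest p in each comparison of genotypes, the 2 of smallest p in each direction in each comparison of lineages or times, and 12 fixed genes (Irf1, Irf7, Irf8, Stat2, Isg15, Ifit1, Ifit3, Ifitm3, Gbp2, Igtp, Psmb9 and Tap1), except Ifit1, which did not pass the filter. Alternatives were median scaling, no background correction, the authors' table, no detection filter, the mean of probes, only the arrays compared, a replicate block and leaving out arrays. Replicate numbers did not pair the arrays.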

Additional observations from a re-analysis of the deposited data

Results flagged for a closer look

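Within groups of 5 arrays, a highest or lowest value was picked out when its gap to the nearest value exceeded 0.71 of the range of the group (Dixon's 95% value for 5 samples). Among 144 combinations of 18 described genes and 8 groups, 14 were picked out (9.72%), and chance picks out about 1 in 20. WT Th1 72 h replicate 4 gave 5 of them, each the lowest of its group: Stat2 at a log2 level of 5.89 (next 8.07), Oas3 at 4.60 (next 6.75), Ifitm1 at 9.67 (next 11.71), Ifitm3 at 9.98 (next 12.09) and Isg15 at 8.55 (next 11.60). Malt1-/- Th17 48 h replicate 1 was the highest for Irf1 at 12.07 (next 11.58) and for Gbp2 at 12.62 (next 12.01) and the lowest for Irf8 at 9.66 (next 10.76).

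Malt1-/- Th1 48 h replicate 2 was the highest for Irf7 at 6.33 (next 5.17). Malt1-/- Th17 48 h replicate 2 was the highest for Oas3 at 4.90 (next 4.58), where Oas3 was not detected. WT Th17 48 h replicate 5 was the lowest for Ifitm2 at 6.06 (next 7.79), and WT Th1 48 h replicate 1 the highest for Gbp2 at 14.54 (next 13.75). Malt1-/- Th17 72 h replicate 2 was the lowest for Tap1 at 7.37 (next 7.76), and WT Th1 72 h replicate 5 the highest for Psmb9 at 13.31 (next 12.99). The effect of MALT1 loss on the kinase gene Jak2 at 72 h differed between lineages by -1.16 (Th17 minus Th1, log2, limma interaction term).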

How the results depend on the processing

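Of the counts of interferon-stimulated genes called, those between lineages stayed within 1.5 times under every alternative run; the cause of the changes in the other counts was not tested. With median scaling in place of quantile normalisation, Malt1-/- minus WT in Th1 at 72 h, 72 minus 48 h in WT Th17 and 72 minus 48 h in WT Th1 each gave 1. Without the detection filter, the count was 1 for Malt1-/- minus WT in Th17 at 72 h, 1 for time in WT Th1 and 8 for time in Malt1-/- Th1. With the mean of kept probes, it was 0 for Malt1-/- minus WT in Th17 at 48 h and 1 for the difference of MALT1 effects between lineages at 48 h, and Ifitm1 turned to 0.13 at 48 h and 0.32 at 72 h for Th17 minus Th1 in WT. With only the arrays compared in the fit, MALT1 loss gave 2 in Th17 at 48 h, 0 in Th17 at 72 h and 0 in Th1 at 72 h. The 2 in Th17 at 48 h were lower in Malt1-/- arrays, and Irf1, the call of the main fit, was not among them. Time gave 0 in WT Th17, 0 in WT Th1, 6 in Malt1-/- Th17 and 8 in Malt1-/- Th1, and the difference of MALT1 effects at 48 h gave 1. Without the 9 arrays closer to another group, chosen after seeing the data, MALT1 loss gave 3 in Th17 at 48 h (1 higher and 2 lower). Time then gave 12, 15, 7 and 21 in WT Th17, WT Th1, Malt1-/- Th17 and Malt1-/- Th1. The differences of MALT1 effects between lineages gave 1 at 48 h and 1 at 72 h. That choice narrows the groups by construction, so the rise of these counts is no added support. No share of all genes was set beside them. The slopes on Ifnb1, also added after seeing the data, gave 3 in WT and 10 in Malt1-/- arrays alone, and those on Ifng gave 1 without the 2 farthest arrays, 1 in WT and 0 in Malt1-/- arrays alone. Leaving out 1 array at a time gave 0 to 1, 0 to 5, 1 to 2 and 1 to 3 for MALT1 loss in Th17 at 48 and 72 h and Th1 at 48 and 72 h, 2 to 8, 0 to 17, 2 to 2 and 1 to 18 for time in the order above, and 0 to 1, 0 to 0, 0 to 1 and 0 to 0 for the 4 differences of MALT1 effects. A difference of MALT1 effects was called only without WT Th17 48 h replicate 5, WT Th1 48 h replicate 1 or 2 or Malt1-/- Th1 48 h replicate 2 (1 between lineages at 48 h each), or without WT Th17 48 h replicate 5 (1 between times in Th17). Replicate numbers did not pair the arrays (median correlation 0.01 over 140 same-numbered pairs, and 6 of 40 arrays correlated best with their own number), and the replicate block gave 1 for the difference of MALT1 effects at 48 h. Of 137 single-gene calls, 1132 of 1215 alternative values kept direction and call, 81 lost the call and 2 turned, and of 1370 values with 1 array left out 165 lost the call. Median scaling shifted the median difference of all genes by 0.18 for MALT1 loss in Th17 at 48 h, -0.13 and 0.10 for the lineages at 48 h in WT and Malt1-/- arrays, 0.26 for the difference of MALT1 effects at 48 h and 0.13 for that between times in Th1. A slide block was not run, since the headers name no slides. Probes detected on none of a group's arrays, such as those of Oas3 and Mx1 in Th17 arrays, have only bounds there.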
